A study of Jatropha curcas with 10 samples.

Results

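The genes described here are the 100 transcripts whose level varied least over a course of gibberellin treatment in the inflorescence meristem of Jatropha curcas, an oilseed shrub. They were chosen from 28447 gene IDs. A gene first had to have a mean value over the 10 libraries from 20 to 300 RPKM (a read number divided by the length of the gene and by the depth of the library), which 7767 genes did. These 7767 genes are called the window below. The standard deviation (SD) over the 10 libraries of log2(RPKM + 1) was then taken for each of them, and the 100 genes with the lowest SD were kept. The SD, the range and the level over these libraries therefore chose the genes, and they are given as a description with no test.

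Total RNA was sequenced from inflorescence meristems (the flower-forming shoot tips) of plants aged 3 years from Yunnan, China. Samples were taken 0, 6, 12, 24 and 48 h after exogenous GA3 (gibberellic acid, a gibberellin), with 2 libraries at each time, called library 1 and library 2 after the number in their labels. All 5 groups carry the treatment label, the 0 h group included. There were no untreated plants at the later times among the samples used here, so the effects of GA3, of elapsed time and of the hour of day cannot be told apart. The labels do not give the genotype, the dose, the mode of treatment or whether the pair sampled at one time comes from different plants, so the spread between them may be technical.

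A reference gene is a transcript against which other transcripts are measured, for example in quantitative PCR, and it serves only if its own level does not follow the treatment. Gibberellins act through a soluble receptor that marks DELLA repressor proteins for degradation, and they promote growth and alter flowering in many plants. Transcripts used as references in plants commonly code for cytoskeletal, translation or protein turnover functions. Whether the 100 genes code for such functions cannot be said here, because 0 of the 28447 IDs matched the supplied RefSeq gene table and the deposited tables pair no ID with a name. IDs alone are used below, with no gene names, positions or sequences, and the tissue label could not be checked against marker genes.

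The libraries held 15934189 to 24448219 recovered reads. Libraries 1 and 2 differed from each other in the same way at the 4 treated times. Over genes averaging 1 RPKM or more, the difference of library 1 minus library 2 correlated between treated times with r = 0.537 to 0.698, and between 0 h and the treated times with r = -0.317 to -0.137. In the window the SD of that difference was 0.45 (log2) for the 0 h pair and 0.72 to 0.75 for the later pairs. The difference followed gene length, with a Spearman correlation over the window genes of 0.432 for 0 h and of -0.607 to -0.393 for the later pairs. Genes are not independent replicates, so these correlations carry no p. For the 100 genes the SD of the difference was 0.12 to 0.15 at all 5 times, a value that their choice kept low.

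The 100 genes spanned means of 20.6 to 280.4 RPKM, with a median of 56.8 and quartiles of 37.0 and 101.8. Their SD of log2(RPKM + 1) ran from 0.068 to 0.12 with a median of 0.10, where the window had a median of 0.35. On the linear scale their coefficient of variation was 4.74% to 8.31%, where the window had a median of 24.5%. The ratio of the highest to the lowest of the 10 libraries, called the fold range, was 1.16 to 1.34 with a median of 1.25. It was at most 1.2 for 12 of the 100 genes and at most 1.3 for 88 of them. In the window the median fold range was 2.17, and 58.1% of the genes had a fold range of 2 or more. Together the 100 genes took 0.722% to 0.775% of the reads of a library. As bulk RNA was measured, a steady level does not tell whether the number of cells and the RNA per cell were each steady.

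The lowest SD belonged to JCGZ_03446 (length 693 bases), with a mean of 56.9 ± 2.69 RPKM (SD, n = 10 libraries). JCGZ_03446 stood at 58.5 and 57.2 RPKM in the 0 h pair, 58.3 and 59.1 in the 6 h pair, 55.1 and 60.7 in the 12 h pair, 53.6 and 58.7 in the 24 h pair, and 55.3 and 52.2 in the 48 h pair, libraries 1 and 2 in that order. Its highest value was in 12 h library 2 and its lowest in 48 h library 2, and the 0 h values lay inside the range of the treated libraries. The fold range was 1.16. Its values rested on 644 to 994 reads.

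JCGZ_25832 (1134 bases) came next, at 30.6 ± 1.48 RPKM (SD, n = 10). It was at 32.8 and 30.8 RPKM in the 0 h pair, 30.04 and 29.0 in the 6 h pair, 32.2 and 29.9 in the 12 h pair, 31.2 and 27.8 in the 24 h pair, and 31.5 and 30.5 in the 48 h pair. Library 1 was above library 2 at each of the 5 times, and the fold range was 1.18. JCGZ_06689 (1395 bases) was the steadiest of the more abundant genes, at 156 ± 7.85 RPKM. It read 147 and 154 RPKM in the 0 h pair, 158 and 161 in the 6 h pair, 164 and 170.3 in the 12 h pair, 149 and 157 in the 24 h pair, and 156 and 145 in the 48 h pair. In the deposited values the pairs of 0 h and 6 h did not overlap, and neither did those of 0 h and 12 h, but the largest ratio between any libraries was 1.17. These pairs did overlap when the libraries were scaled by median ratios (described below), where the fold range was 1.30. How many genes of the window show such gaps was not counted, so nothing is read from them.

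JCGZ_14016 (582 bases) had the highest mean of the 100, at 280.4 ± 14.3 RPKM (SD, n = 10), and the smallest fold range, 1.16. Its level was 297 and 296 RPKM in the 0 h pair, 256 and 276 in the 6 h pair, 288 and 269.9 in the 12 h pair, 291 and 283 in the 24 h pair, and 286 and 261 in the 48 h pair. All 8 treated libraries of JCGZ_14016 lay below both 0 h libraries. JCGZ_04703 (1227 bases) went the other way within a fold range of 1.17. It had 65.5 and 66.9 RPKM in the 0 h pair, 72.6 and 76.7 in the 6 h pair, 70.3 and 76.6 in the 12 h pair, 75.2 and 70.9 in the 24 h pair, and 72.8 and 73.0 in the 48 h pair. Both 0 h libraries of JCGZ_04703 were below all 8 treated ones. The deposited levels of JCGZ_14016 and JCGZ_04703 thus set 0 h apart from the treated times. How many genes of the window do so was not counted, so nothing particular to these genes is read from it. Neither gene kept this separation when the libraries were scaled by median ratios (described below), where their fold ranges were 1.42 and 1.46.

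The other genes among the 10 steadiest had means of 22.2 to 196 RPKM. JCGZ_15348 (1092 bases) ran from 19.9 RPKM in 6 h library 1 to 23.6 in 12 h library 2, and JCGZ_18866 (621 bases) from 20.7 in 6 h library 2 to 24.6 in 0 h library 1. JCGZ_18757 (1251 bases) lay between 27.5 RPKM in 12 h library 1 and 32.7 in 24 h library 2. JCGZ_19963 (1239 bases) lay between 134 RPKM in 24 h library 2 and 161 in 12 h library 2. The extremes of JCGZ_04452 (816 bases) were 175 RPKM in 48 h library 2 and 207 in 6 h library 2. These 5 genes had fold ranges of 1.18 to 1.20, and no time held the highest or the lowest value of all of them.

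**Figure D1:**
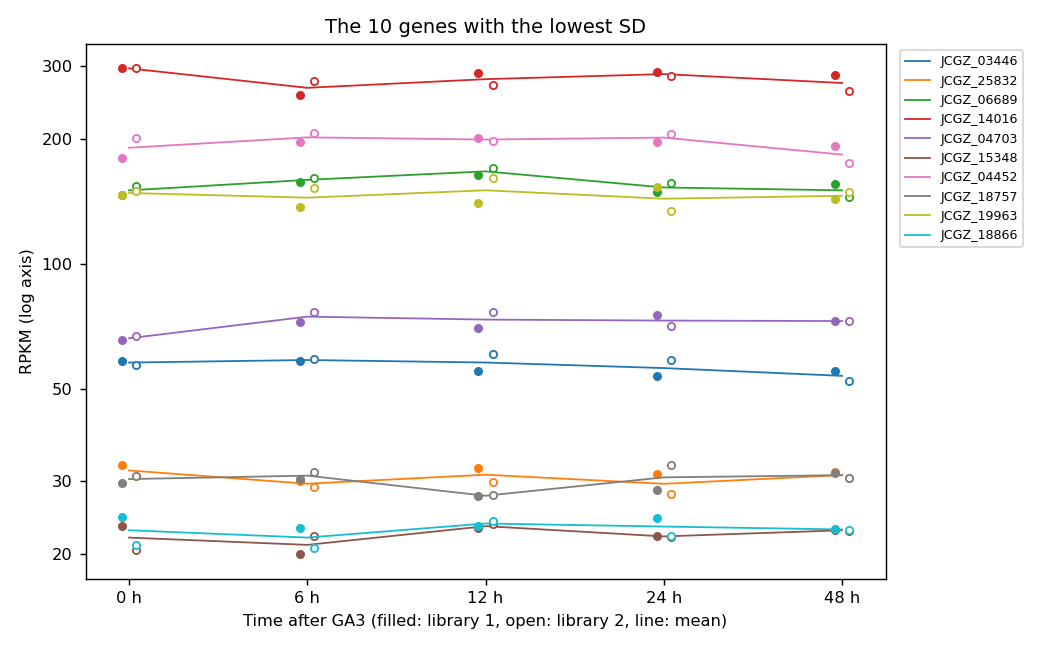
RPKM on a log axis of the 10 genes with the lowest SD at 0, 6, 12, 24 and 48 h after GA3. Filled points are library 1, open points library 2 and the line joins the means of each pair; every gene stays within a fold range of 1.16 to 1.20 over the 10 libraries.

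At the other end of the 100, JCGZ_14580 (795 bases) had the largest fold range, 1.34. JCGZ_14580 was at 48.4 and 47.5 RPKM in the 0 h pair, 53.0 and 60.7 in the 6 h pair, 49.2 and 53.6 in the 12 h pair, 45.3 and 50.3 in the 24 h pair, and 51.9 and 49.9 in the 48 h pair. Its range was set by 6 h library 2 and 24 h library 1, and 8 of its libraries lay between 47.5 and 53.6 RPKM. JCGZ_17442 (960 bases) had a fold range of 1.33 and JCGZ_01085 (1416 bases) likewise, and in both genes the extremes were the pair of 48 h. JCGZ_17442 read 24.8 RPKM in 48 h library 1 and 18.7 in library 2, and JCGZ_01085 read 241 and 182 RPKM there. For these genes the widest gap was thus between libraries of 1 time. The gene of lowest mean, JCGZ_08225 (1338 bases), went from 18.5 RPKM in 0 h library 2 to 23.1 in 6 h library 2, around a mean of 20.6 ± 1.24 (SD, n = 10).

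The limit of 100 genes cut through a continuous range. The members at ranks 99 and 100, JCGZ_20869 and JCGZ_01085, both had an SD of 0.116 at this precision. The genes just outside, JCGZ_17102 and JCGZ_13043, both had an SD of 0.117. JCGZ_17102 lay between 60.3 and 77.3 RPKM and JCGZ_13043 between 47.2 and 60.3 RPKM, each with a fold range of 1.28, which is below the 1.30 of JCGZ_20869.

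Steady genes occurred at all levels of the window. Of the 4311 genes with a mean of 20 to 50 RPKM, 44 were among the 100 (1.02%), of the 2044 genes from 50 to 100 RPKM 29 (1.42%), and of the 1412 genes from 100 to 300 RPKM 27 (1.91%). The steadiest gene of each class was JCGZ_25832, JCGZ_03446 and JCGZ_06689, in that order. The 100 most abundant transcripts of the meristem, which all have means of at least 1472 RPKM and so lie outside the window, had a median SD of 0.47 and a median fold range of 2.91. The lowest fold range in that group was 1.37, above the 1.34 of JCGZ_14580. Those genes were not chosen for a low SD, and the window as a whole had a median SD of 0.35 and a median fold range of 2.17.

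Part of the spread of the 100 genes was read counting. For each gene the SD that counting alone would give was computed from its recovered reads, taken as Poisson counts. It was 0.019 to 0.10 (log2), with a median of 0.043. The observed SD was a median of 2.40 times the counting SD, where the median in the window was 7.17 times. In 32 of the 100 genes it was at most 2 times the counting SD, as in 0.914% of the window. JCGZ_18866, at 229 to 336 reads per library, had an observed SD of 0.082 and a counting SD of 0.085. The observed SD is the value that chose the genes, so a ratio near or below 1 is in part a product of the choice, and nothing is read from it. With median ratios (a scaling described below) the fold range of JCGZ_18866 was 1.56, against 1.19 as deposited. JCGZ_01085, at 4540 to 6959 reads, stood at the other end with an SD 6.05 times its counting SD. In the class from 20 to 50 RPKM the median ratio was 1.87, and in that from 100 to 300 RPKM it was 3.50. A gene with fewer reads is thus steady within wider counting limits.

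**Figure D2:**
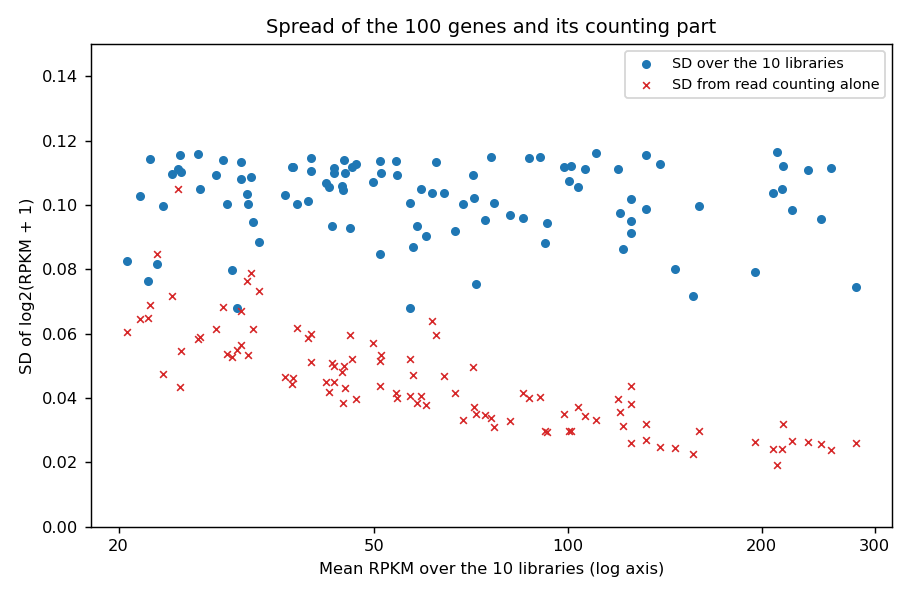
SD of log2(RPKM + 1) over the 10 libraries for each of the 100 genes (points) and the SD from read counting alone (crosses), against mean RPKM on a log axis. The observed SD stays between 0.068 and 0.12 at all levels. The counting SD lies between 0.019 and 0.10 and tends to be lower at higher levels, but it depends on the reads of a gene and so also on its length.

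The 100 genes were of intermediate length, a property the choice did not use. Their median length was 966 bases, with quartiles of 751 and 1240.5, against quartiles of 660 and 1461 and a median of 1008 in the window. When the window was cut into 10 length classes of about equal size, 69 of the 100 genes fell in the 4 classes from 729 to 1350 bases, which hold 39.9% of the window. The shortest class (up to 456 bases) held 2 of them and the longest (from 1998 bases) held 1, JCGZ_18662 at 2205 bases, which was named after its length had been seen. The median SD of all window genes followed the same course, at 0.42 in the shortest class, 0.29 in the classes from 873 to 1161 bases and 0.50 in the longest. Over the treated times the median difference of library 1 minus library 2 ran from 0.38 (log2) in the shortest class through 0.031 in the class of 873 to 1008 bases to -0.69 in the longest. All 100 carry JCGZ locus tags. Of the 161 window genes with another kind of ID, which are 2.07% of the window, 0 were among the 100. With so small a share nothing is read from this count. The steadiest of these 161 stood at rank 238 with an SD of 0.14.

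**Figure D3:**
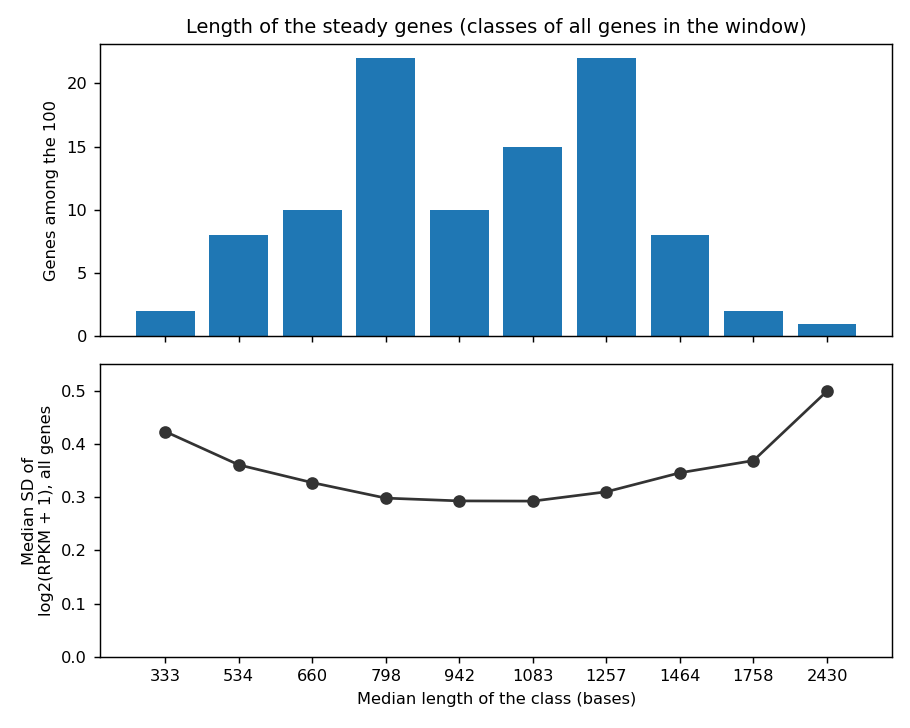
Number of the 100 steady genes in each of 10 length classes of the 7767 window genes (bars, top) and the median SD of log2(RPKM + 1) of all genes in the class (points, bottom), against the median length of the class in bases. The 4 classes from 729 to 1350 bases hold 69 of the 100 genes, and the median SD is lowest at 0.29 in the middle classes.

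Differences between times were small in these genes, as their choice required. Against 0 h, the mean log2(RPKM + 1) of the 2 libraries of a time moved by -0.21 to 0.26 (6 h), -0.22 to 0.28 (12 h), -0.21 to 0.22 (24 h) and -0.31 to 0.21 (48 h) over the 100 genes. The medians were 0.035, 0.038, -0.026 and 0.00029. In the window the medians were 0.071, 0.090, -0.074 and -0.0046, in the same order of times. At 6 h and 12 h, 65 and 61 of the 100 genes were above their 0 h level, and at 24 h and 48 h 40 and 50 were. The window median was likewise positive at 6 h and 12 h and negative at 24 h, so nothing particular to the 100 is read from these counts. The largest change against 0 h belonged to JCGZ_27007, named after its values had been seen. It stood at 101 and 100.1 RPKM in the 0 h pair, 83.3 and 95.5 in the 6 h pair, 90.1 and 88.5 in the 12 h pair, 92.1 and 90.9 in the 24 h pair, and 79.3 and 83.1 in the 48 h pair. In the deposited values all 8 treated libraries of JCGZ_27007 lay below both 0 h libraries, with a change of -0.31 (log2) at 48 h. JCGZ_27007 did not keep this separation when the libraries were scaled by median ratios, where its fold range was 1.37. How many genes of the window are so separated was not counted, so nothing is read from it. The largest increase over 0 h, also picked after the values were seen, was that of JCGZ_13425, from 44.4 and 50.9 RPKM at 0 h to 58.0 and 58.1 at 12 h.

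A model fitted to all 17403 genes averaging 1 RPKM or more (limma, time as a factor, Benjamini-Hochberg adjusted p under 0.05) called 0 of the 100 genes over the course as a whole, where it called 1.32% of all genes. It called 0 of the 100 at 6 h, where it called 1.13% of all genes against 0 h, and 0 at 12 h, where it called 1.53%. At 24 h and 48 h it called 0 of the 100 and 0.00% of all genes (574 and 793 genes had an unadjusted p under 0.05, and limma-voom called 0). By unadjusted p under 0.05, 0 of the 100 passed in any of these tests, where 10.4% of all genes passed over the course, 11.3% at 6 h and 11.9% at 12 h. Run on the recovered reads, limma-voom also called 0 of the 100, and of all genes it called 164 over the course, 137 at 6 h and 194 at 12 h. The choice of the genes used the same values, so nothing is read from these counts. The model moderates each gene's spread towards that of other genes, and the unadjusted 95% interval of a change from 0 h to 6 h in these genes was ± 0.42 to ± 0.53 (log2), with a median equal to a 1.38-fold change.

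The libraries did not share the extremes evenly. The highest value of a gene was in 6 h library 2 for 21 of the 100 genes, in 12 h library 2 for 18, in 0 h library 1 for 15 and in 48 h library 1 for 14, and in 24 h library 1 for 0. The lowest value was in 24 h library 1 for 18 genes, in 48 h library 2 for 17, in 0 h library 1 for 14, and in 6 h library 2 for 2. The median deviation of the 100 genes from their own means was 0.054 (log2) in 6 h library 2 and -0.053 in 24 h library 1. The window moved in the same direction and further in both, by 0.12 and -0.11. Whether this shift of whole libraries set the extremes of single genes was not tested.

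A reference gene is used in samples that had no part in choosing it. The choice was therefore repeated 10 times on 9 libraries, and the deviation of the remaining library from the mean of those 9 was taken. The median absolute deviation of the 100 genes chosen was 0.096 to 0.17 (log2) in the library left out, with a median of 0.13 over the 10 libraries. In the 9 libraries that had chosen them the same genes deviated by a median of 0.064 to 0.070. All genes of the window deviated by a median of 0.18 to 0.38, so the chosen genes were nearer to their own mean in 10 of 10 libraries. Between 86% and 98% of the chosen genes stayed within 1.25-fold in the library left out, against 43.3% to 74.2% of the window. Beyond 2-fold lay 0 of the chosen genes in each of the 10 libraries, against 2.95% to 10.7% of the window. The widest miss of a chosen gene was 1.64-fold. The deviation was largest in 6 h library 2 (0.17) and smallest in 48 h library 1 (0.096). The 10 choices overlap, so no p is attached. The other library of the same time was always among the 9, and it may come from the same plants. The library left out was thus not a new time or a sample known to be independent.

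**Figure D4:**
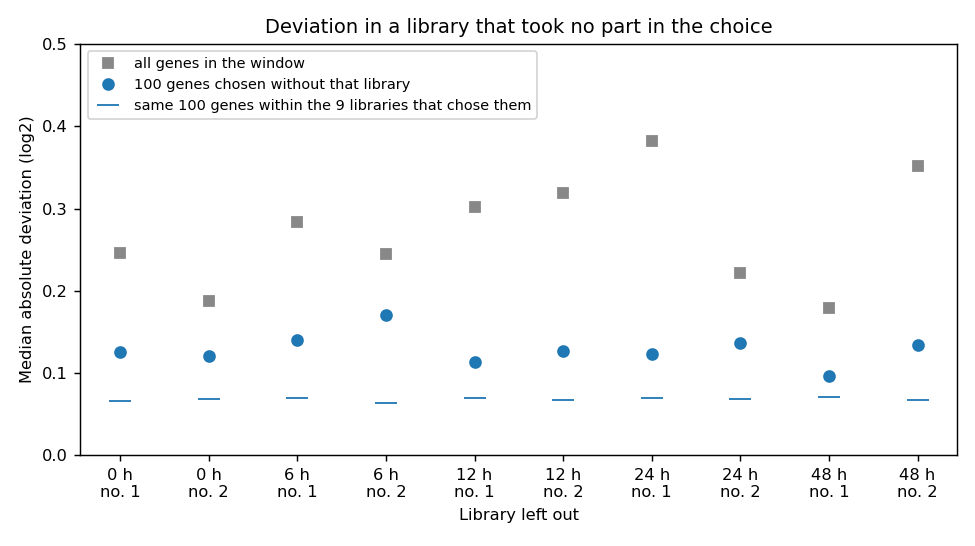
Median absolute deviation (log2) of each library from the mean of the other 9, for all genes of the window (squares) and for the 100 genes chosen without that library (circles), with the deviation of the same genes within the 9 libraries that chose them (dashes). The chosen genes lie at 0.096 to 0.17 and the window at 0.18 to 0.38.

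Between 64 and 86 of the 100 genes were chosen again when 1 library was left out, fewest without 6 h library 2, and 51 were chosen in all 10 repeats. A harder version of the same question used the 5 libraries of one number to choose 100 genes and those of the other number to measure them. Both numbers cover the same 5 times, so this was no measure in new times either. Genes chosen in the libraries of number 1 had a median SD of 0.065 there and of 0.17 in those of number 2, where the window had 0.29. Genes chosen in the libraries of number 2 had 0.067 there and 0.18 in those of number 1, where the window had 0.32. Of these, 36 and 35 genes lay among the steadiest 10% of the window in the libraries that had not chosen them. The lists chosen from the 5 libraries of number 1 and of number 2 shared 6 genes, which is 6 of 100 on either side. The lists were drawn from 7445 window genes for number 1 and 7921 for number 2. In the libraries that had not chosen them, the genes of the lists from number 1 and number 2 had median fold ranges of 1.36 and 1.38. Both medians are above the 1.34 that no gene among the 100 exceeded over all 10. The widest fold ranges there were 2.37 for the list from number 1 and 2.44 for that from number 2.

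In the deposited values the geometric means of several genes varied less than JCGZ_03446 alone. The geometric mean of the 100 genes ran from 59.9 RPKM in 24 h library 1 to 63.9 in 6 h library 2, a fold range of 1.07. With the 10 steadiest genes the fold range was 1.06, with the 3 steadiest, which are also the steadiest of each level class (JCGZ_03446, JCGZ_25832 and JCGZ_06689), 1.10, and with JCGZ_03446 alone 1.16. These values come from the libraries that chose the genes. The order turned round with the libraries scaled by median ratios, where the geometric mean of the 100 genes had a fold range of 1.25 and JCGZ_03446 one of 1.23. In the library left out, the steadiest single gene chosen without it was at 0.836 to 1.23 times its level in the other 9, on the scale of RPKM + 1. The mean of the 3 steadiest was at 0.846 to 1.10 times, that of the 10 steadiest at 0.873 to 1.09 times, and that of all 100 at 0.928 to 1.10 times. The mean of all 100 was lowest in 48 h library 2 and highest in 6 h library 2. With median ratios and the choice repeated, the steadiest single gene was at 0.898 to 1.06 times and the mean of 3 at 0.888 to 1.11 times, so 3 genes ranged more widely than 1 there. The mean of 10 was at 0.953 to 1.04 times and that of 100 at 0.910 to 1.03 times.

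Pairs of genes were compared by the SD of their log2 ratio, the basis of the M value used to rank reference genes (the mean of that SD over all partners of a gene). Over the 4950 pairs the median SD was 0.14 and the highest 0.22. The lowest, 0.047, was that of JCGZ_22741 (909 bases) and JCGZ_03045 (741 bases). JCGZ_22741 lay between 183 and 227 RPKM and JCGZ_03045 between 35.0 and 43.8 RPKM, and each had its lowest value in 48 h library 2 and its highest in 48 h library 1. Their ratio stayed between 4.90 and 5.47, a fold range of 1.12, narrower than the 1.24 and 1.25 of the single genes. A low SD of a ratio is also reached when both genes move together, and these did. The lowest M value of a gene among the 100 was 0.111, for JCGZ_06689, and the median was 0.138.

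Which genes counted as steady turned on how the libraries were scaled. RPKM fixes the total of reads, and other scalings fix other quantities. Factors that equalise the median ratio of all genes to their mean had a fold range of 1.32 over the libraries, from 0.844 in 24 h library 1 to 1.11 in 12 h library 2. After that scaling 20 of the 100 genes were chosen again. The fold range of their geometric mean was then 1.25, and that of single genes reached 1.68. With libraries scaled to their upper quartile 48 were chosen again, and the geometric mean had a fold range of 1.12. With RPKM values brought to the same total in each library, as in TPM (a unit with a fixed sum per library), 8 were chosen again and the fold range of the geometric mean was 1.38. This TPM scaling was added after the data had been seen. After a correction in each library for the trend with gene length 20 were chosen again, and 45 of the genes chosen then fell in the 4 length classes from 729 to 1350 bases. No gene was chosen under all 5 of these scalings (0 genes).

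**Figure D5:**
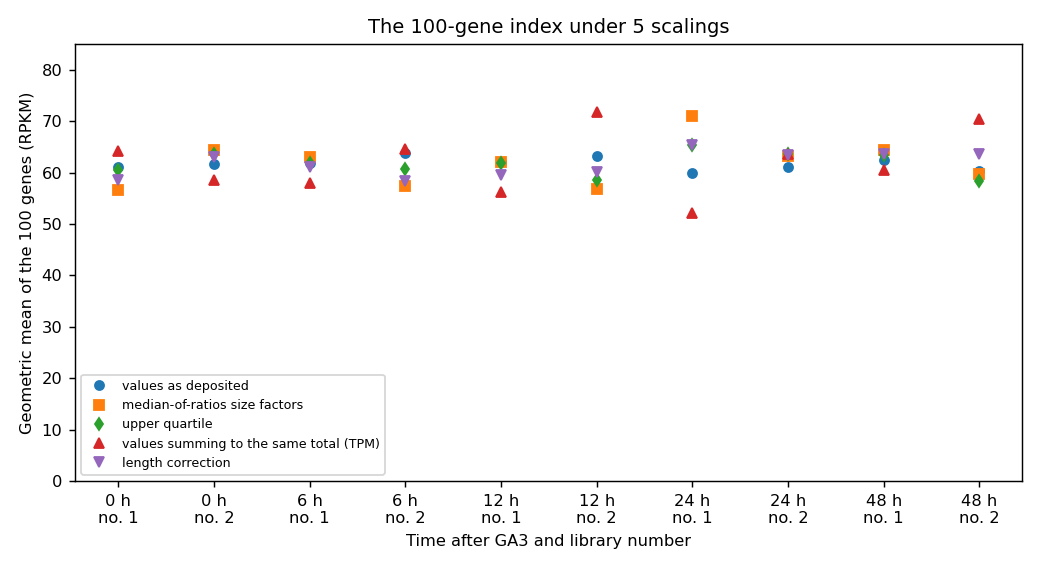
Geometric mean (RPKM) of the 100 genes in each library, as deposited and after 4 other scalings. As deposited it stays between 59.9 and 63.9 RPKM, while scaled to a common total it runs from 52.1 in 24 h library 1 to 71.7 in 12 h library 2, and scaled by median ratios it is highest in 24 h library 1 at 70.9.

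The genes nevertheless stayed among the steadier genes of the window. Their median rank by SD was 296.5 of 7745 genes with median ratios, 105 of 7751 with the upper quartile, 541 of 7820 with equal totals and 403.5 of 7716 with the length correction. Under these scalings 93, 100, 88 and 78 of the 100 ranked among the first 1000. These ranks come from the same libraries and are a description. The genes chosen anew under each scaling were about as steady as the 100 are in the deposited values, with median SDs of 0.088 to 0.11.

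The fold range of each named gene moved with the scaling. For JCGZ_03446 it was 1.16 as deposited, 1.23 with median ratios, 1.21 with the upper quartile, 1.26 with the length correction and 1.48 with equal totals. For JCGZ_25832 it went from 1.18 to 1.42 with median ratios, and for JCGZ_06689 from 1.17 to 1.49 with equal totals. JCGZ_18662, the longest of the 100, went from 1.28 to 2.30 with the length correction. Over the 5 scalings the worst fold range of a gene was 1.32 to 2.30, with a median of 1.50, and it was reached with equal totals in 62 genes, with median ratios in 23 and with the length correction in 15.

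Across 26 other ways of choosing, which include the scalings and the libraries left out, JCGZ_03446, JCGZ_25832, JCGZ_15348 and JCGZ_19521 were chosen again in 23, the highest number reached, and JCGZ_04452, JCGZ_08225 and JCGZ_12600 in 22. Of these last 3, JCGZ_04452 has the lowest SD, and JCGZ_12600 was named after its count had been seen. JCGZ_19521 (1338 bases) had only rank 45 by its SD, with a range of 32.7 to 41.8 RPKM. The scaling to equal totals left out JCGZ_04452 and the 4 genes chosen again in 23. Among the same genes, median ratios left out JCGZ_25832, JCGZ_15348 and JCGZ_04452, and the upper quartile left out JCGZ_04452. The length correction left out JCGZ_03446 and JCGZ_25832 and kept JCGZ_15348, JCGZ_19521 and JCGZ_04452. Most of the 26 ways were not scalings, and the choices with a library left out overlap. A high count therefore does not show that a gene stays chosen under other scalings. The median over the 100 genes was 18 of 26, and 35 genes reached 20 or more.

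Used as a reference for the time course, the geometric mean of the 100 genes would shift all log2 changes against 0 h by a common amount, equal to its own change with the sign turned. Its own change was 0.036 (log2) by 6 h, 0.029 by 12 h, -0.019 by 24 h and -0.00021 by 48 h. The factors of median ratios changed by 0.040, 0.053, -0.17 and -0.040 at these times, and those of the upper quartile by 0.054, 0.072, -0.075 and 0.029. The factors of equal totals changed by 0.037, -0.023, 0.071 and -0.091, so at 12 h and at 24 h they moved in the opposite direction to the others. With values divided by the geometric mean of the 100 genes, limma called 197 genes for 6 h, 269 for 12 h and 0 for both 24 h and 48 h (adjusted p under 0.05), against 197, 267, 0 and 0 with the values as deposited. The choice of the genes kept this mean nearly constant in the deposited values. The calls therefore had to stay nearly the same, and nothing is read from their likeness.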

How the data were processed

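The members and the alternatives were chosen with earlier results of these data known. Each library has 1 deposited table with a gene ID and a value; the unit is not written in it. They were taken here to be RPKM values made by the authors, because the ratios of low values between libraries are ratios of whole numbers times 1 factor per library. The submitters' processing notes name Bowtie 0.12.2 and a mouse build, mm8, without saying what for. For the genome used in alignment, the counter and the annotation, the sources used here give nothing. Reads and gene lengths were recovered from the values: all 203696 non-zero values (100.0%) gave whole reads to within 0.01, and 99.9% of the lengths of JCGZ IDs were multiples of 3, so these are coding lengths. The lengths of the other IDs may hold untranslated parts. It is not stated whether single reads or read pairs were counted. All limits from reads cover counting error only.

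The titles gave each library its time. Between the libraries of a time 0 values above 0 were identical, and the reads differed beyond counting noise, with a chi-square per gene of 55.2 or more. Over all genes, limma 3.58.1 in R 4.3.3 tested log2(RPKM + 1) of genes averaging 1 RPKM or more, with time as a factor, mean-variance trend and robust moderation, and was tested on simulated data. Choices, SDs and scalings used Python 3.11.15 and pandas 2.3.3. Size factors from median ratios used genes above 0 in all libraries, and the length correction subtracted a lowess curve (fraction 0.3) on length from each library. Named are the 10 genes of lowest SD, the 3 of largest fold range, the highest and lowest mean, the steadiest of each level class, the genes next to the limit, the pair of lowest ratio SD and the 5 chosen again most often. Alternatives were other pseudocounts, windows, spread measures and scalings, and each library left out.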

Additional observations from a re-analysis of the deposited data

How the results depend on the processing

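Of the 100 genes, 90 to 97 were chosen again with pseudocounts of 5 and 0.1 or by the coefficient of variation, 88 with the counting variance subtracted, 80 by the fold range, and 79 and 76 with wider windows (10 to 600 RPKM, and at least 1 RPKM). Fewer were chosen again with median ratios (20), the upper quartile (48), the length correction (20), equal totals as in TPM (8, added after the data were seen), the median absolute deviation (28), the SD of the 5 time means (28), the SD within times (33), and the libraries of number 1 (25) or number 2 (27) alone. Leaving out 1 library gave 64 to 86. The largest fold range of the 100, 1.34, was 1.68 with median ratios, 1.50 with the upper quartile, 1.72 with equal totals and 2.30 with the length correction, and 1.33 to 1.34 with a library left out. The fold range of their geometric mean, 1.07, was 1.25, 1.12, 1.38 and 1.12 under the same scalings, and 1.05 to 1.07 with a library left out. A pseudocount of 1 in these ratios left both within their spread, and the median deviation of the library left out (0.13) was 0.11 to 0.13 under its 3 alternatives.

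With a replicate block for the library number, limma called 351 genes at 6 h, 526 at 12 h and 430 over the course, against 197, 267 and 230, and with the block and the length correction 555, 719 and 575. Leaving out single libraries gave 17 to 190, 35 to 302 and 87 to 214 genes. The correlation of library differences was 0.54 to 0.70 between treated times, over the 0.1 set as a minimum, but negative between these and 0 h. The numbers were therefore not taken to pair the libraries. The main model thus leaves the difference that the treated times share in its residual spread. At 24 h and 48 h limma called 0 genes under all of these settings. Of the 100 steady genes 0 were called in any comparison under any of these settings. Depth limits the genes of lowest count most: JCGZ_21502 had 128 to 205 reads.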

Other observations

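The values below were picked after they had been seen and carry no test. The gene of the 100 with the smallest worst fold range over the 5 scalings was JCGZ_19410 (666 bases), at 1.32. JCGZ_19410 stood at 244 and 261 RPKM in the 0 h pair, 251 and 273 in the 6 h pair, 265 and 250.03 in the 12 h pair, 248 and 221 in the 24 h pair, and 235 and 227 in the 48 h pair. Its SD gave it only rank 27 of the 100. JCGZ_26478 (714 bases) followed at 1.35, with a mean of 120.4 RPKM. Among all genes of the window ranked by this worst fold range, 10 of the first 20 and 40 of the first 100 were among the 100 steady genes. The values as deposited, which chose the 100, are among the 5 scalings, so this overlap is in part a product of the choice. The best genes outside the 100 were JCGZ_03291 (rank 112 by SD, 777 bases, mean 64.0 RPKM) at 1.35 and JCGZ_01383 (rank 169, 1086 bases, mean 228 RPKM) at 1.37.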
